A study of Drosophila melanogaster with 44 samples.

Results

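Long noncoding RNAs are transcripts that lack a long open reading frame, and many of them are capped, spliced and polyadenylated like mRNAs. Antisense RNAs are the subset transcribed from the strand opposite a known gene, so that their exons can lie across the exons of that gene. The roles known in Drosophila are diverse: the roX RNAs are parts of the dosage compensation complex of the male X chromosome, Hsromega RNA gathers RNA-binding proteins in nuclear speckles, flam RNA is the precursor of transposon-directed piRNAs in ovarian somatic cells, and other genes host small nucleolar RNAs (snoRNAs) or have no assigned role.

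The genes described here are the expressed long noncoding and antisense RNA genes of Drosophila melanogaster ovary and cultured ovarian cells. They were taken by their FlyBase symbol, which begins with lncRNA: or asRNA:, and by their level, at least 1 TPM (a length-scaled share of the transcripts in a library) in at least 2 of 12 poly(A)-selected RNA-seq libraries. They were thus chosen by their TPM in these same libraries, and their being expressed is a description. By this rule 493 genes were found, 275 of them lncRNA: genes and 218 asRNA: genes, among the 2401 genes with these prefixes and the 17807 genes listed. The genes nearest the limit were asRNA:CR44386, lncRNA:CR44149 and lncRNA:CR44380, each with a second-highest TPM of 1.0, and, left out, lncRNA:CR43334 and lncRNA:CR45833 at 0.99 and asRNA:CR44155 at 0.98.

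The libraries were 3 of Mod(mdg4)-N mutant ovary, 3 of wild-type ovary, 2 of Mod(mdg4)-N KD OSC, 2 of Mod(mdg4)-All KD OSC and 2 of EGFP KD OSC. Both ovary groups were whole ovary. The mutant flies, marked y1 w1118, had the allele RN1-2/1-2 of Mod(mdg4), which carries a deletion in the exon specific to variant N. The wild-type flies were also y1 w1118, and whether the lines share more of their background is not stated. OSC are cultured Drosophila ovarian somatic cells, here transfected with small interfering RNA (siRNA) against variant N, against the sequence shared by the Mod(mdg4) variants, or against EGFP, a gene these cells lack. Mod(mdg4) is a chromatin protein made in many variants by trans-splicing. No ages were given for the flies, and OSC are 1 cell line, so that tissue, culture and transfection cannot be told apart when ovary is set against OSC.

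Library totals ran between 13728168 and 20244538 counts, and the noncoding genes described here took 0.168% to 0.286% of them in ovary and 0.326% to 0.346% in OSC. The gene total of mod(mdg4) was 62.2 and 73.0 TPM in Mod(mdg4)-All KD, against 478 and 448 TPM in EGFP KD (log2 fold change -2.47, SE 0.09, adjusted p = 0.000366, edgeR). It was 434 and 403 TPM in Mod(mdg4)-N KD and 359, 520 and 625 TPM in Mod(mdg4)-N mutant ovary, against 528, 627 and 792 TPM in wild-type ovary, and a gene total does not show variant N. The tissue labels matched their markers: the 9 germline markers summed to 2147 to 2228 TPM in mutant ovary, 1705 to 1913 TPM in wild-type ovary and 26.9 to 34.5 TPM in OSC.

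Nearly all asRNA: genes lay across exons of protein-coding genes, and most lncRNA: genes did not. Of the 218 asRNA: genes, 204 overlapped coding-gene exons on the opposite strand, 13 on both strands and 1 overlapped none. Of the 275 lncRNA: genes, 216 overlapped no exon of a coding gene, 28 overlapped some on the same strand, 28 on the opposite strand and 3 on both. The median asRNA: gene had 72.0% of its exonic bases under coding-gene exons, the median lncRNA: gene 0%. Over both kinds, 214 genes overlapped coding sequence, 87 had at least 80% of their exonic bases under coding-gene exons and 197 overlapped no exon of any other gene. The kit of these libraries keeps strand, but the alignment options named in the sources used here include no strand setting. Reads of a noncoding gene and of a coding gene on the opposite strand may therefore have been shared between them, and the part of this sharing in the results was not tested.

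**Figure D1:**
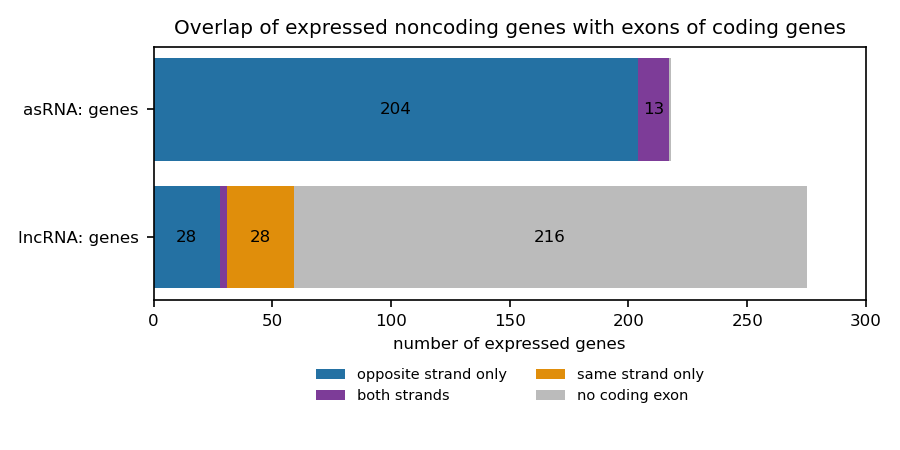
Number of expressed asRNA: genes (upper bar) and lncRNA: genes (lower bar), coloured by whether their exons overlap exons of protein-coding genes on the opposite strand only, the same strand only, both strands or not at all. Opposite-strand overlap makes up 204 of 218 asRNA: genes, and 216 of 275 lncRNA: genes overlap no coding exon.

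The genes were expressed at low levels. Their median TPM was 0.91 in mutant ovary, 0.647 in wild-type ovary, 1.67 in Mod(mdg4)-N KD, 1.70 in Mod(mdg4)-All KD and 1.77 in EGFP KD. The 8585 protein-coding genes that passed the same TPM rule had medians of 31.9 TPM in mutant ovary and 32.7 TPM in wild-type ovary, and of 23.1 TPM in Mod(mdg4)-N KD, 22.1 TPM in Mod(mdg4)-All KD and 24.2 TPM in EGFP KD. The median gene had a mean of 6.63 counts per library in ovary and 12.7 counts in OSC, and 46.99% of the nonzero counts were not whole numbers, which arises where reads are divided between overlapping or repeated features. At TPM 1 or more, 75 genes were found in each of the 12 libraries, 172 in no ovary library and 67 in no OSC library.

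A few genes carried most of the noncoding signal. lncRNA:CR42862 (FBgn0262109, 3L:224106-230964, plus strand, with 5485 exonic bases of which 246 overlap CG33229 on the same strand) took 40.2% to 52.1% of the counts of these genes in ovary libraries and 45.6% to 49.0% in OSC libraries. Its level was 327, 216 and 222 TPM in mutant ovary, against 238, 155 and 167 TPM in wild-type ovary, and 305 to 349 TPM across the 6 OSC libraries. The ovary groups overlapped (log2 fold change 0.43, SE 0.27, adjusted p = 0.282, edgeR). lncRNA:CR43685 (3R:7092347-7093707), which overlaps no other exon, lay between 38.0 and 46.4 TPM in mutant ovary and between 45.3 and 50.9 TPM in wild-type ovary, and was not called (adjusted p = 0.0903).

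The genes with the 2 highest TPM values in any library were a pair of short genes on the X chromosome, lncRNA:CR34335 (FBgn0267910, X:3545750-3546110, minus strand, 361 bases) and lncRNA:CR40469 (FBgn0058469, X:122493-122706, plus strand, 214 bases). Aligned over the 214 bases of CR40469, they were identical at 212 of 214 columns (99.1%), with 1 substituted base and 1 base without a partner. The rest of CR34335 lies outside this alignment. The aligned stretches are printed because they differ so little, although the levels of the 2 genes ran in opposite directions between ovary and OSC. The differing bases are in capitals (bases 1 to 214 of CR40469, and bases 37 to 249 of CR34335 at X:3545862-3546074, minus strand, 5′ to 3′). Each sequence here is from the Release 6 genome by the coordinates of the Ensembl annotation.
lncRNA:CR40469: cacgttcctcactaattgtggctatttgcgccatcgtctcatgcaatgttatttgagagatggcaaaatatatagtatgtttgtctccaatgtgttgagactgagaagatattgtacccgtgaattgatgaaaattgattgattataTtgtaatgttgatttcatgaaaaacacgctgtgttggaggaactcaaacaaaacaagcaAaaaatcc
lncRNA:CR34335: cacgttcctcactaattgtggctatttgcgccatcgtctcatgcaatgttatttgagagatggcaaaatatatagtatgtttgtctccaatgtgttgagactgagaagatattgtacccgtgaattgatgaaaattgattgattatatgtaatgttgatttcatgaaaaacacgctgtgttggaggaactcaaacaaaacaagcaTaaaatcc

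lncRNA:CR34335 was at 940, 1235 and 720 TPM in mutant ovary, against 1166, 727 and 629 TPM in wild-type ovary. It was at 152 and 160 TPM in Mod(mdg4)-N KD, 182 and 188 TPM in Mod(mdg4)-All KD, and 117 and 106 TPM in EGFP KD. lncRNA:CR40469 was at 0 TPM in 5 ovary libraries and at 3.09 TPM, or 1 count, in the wild-type ovary replicate 2, but at 305 and 376 TPM in Mod(mdg4)-N KD, 436 and 317 TPM in Mod(mdg4)-All KD, and 323 and 201 TPM in EGFP KD. The pair thus ran in opposite directions between ovary and OSC. Their effective lengths, the positions at which a fragment can start, were 42.4 to 50.0 bases for CR34335 and 19.3 to 23.4 bases for CR40469. Each count therefore weighed more in TPM than in a longer gene. Of the 50-base words of the pair, 34.6% in CR34335 and 65.5% in CR40469 occurred at 2 places in the genome, so the levels of both genes are uncertain. Of the 493 genes, 468 had no repeated 50-base word.

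In Mod(mdg4)-N mutant ovary, 15 noncoding genes were higher and 3 were lower than in wild-type ovary, and asRNA:CR45835, asRNA:CR45822 and Hsromega were among those that rose. A gene was called at an adjusted p under 0.05 by the quasi-likelihood test of edgeR, adjusted over all genes tested. Of the 493 genes 145 had enough counts to be tested, and the 18 called were 12.4% of them, a share below the 18.1% called among all 7934 genes tested, of which 11.7% were higher and 6.42% lower. The median log2 fold change of the 145 genes was 0.27, against -0.01 over all genes tested. By kind, 11 of 83 asRNA: genes were higher and 0 lower (13.3% called, median log2 fold change 0.35), a share higher close to that over all genes, and 4 of 62 lncRNA: genes were higher and 3 lower (median 0.17). By position, 12 of 88 genes that overlap coding exons on the opposite strand only were higher, against 1 higher and 1 lower of the 30 that overlap no exon of any other gene, and 6 of the 15 higher genes had over 50% of their bases under coding exons. At an unadjusted p under 0.05 there were 43 of the 145 genes, against 38.3% of all genes tested, and the groups did not overlap in 59 of them, against 45.2%. Same-numbered mutant and wild-type ovary libraries deviated together, so they may be paired. The labels do not state a pairing, and the test above used none. With the replicate as a block 23 of the 145 genes were called, against 28.7% of all genes.

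**Figure D2:**
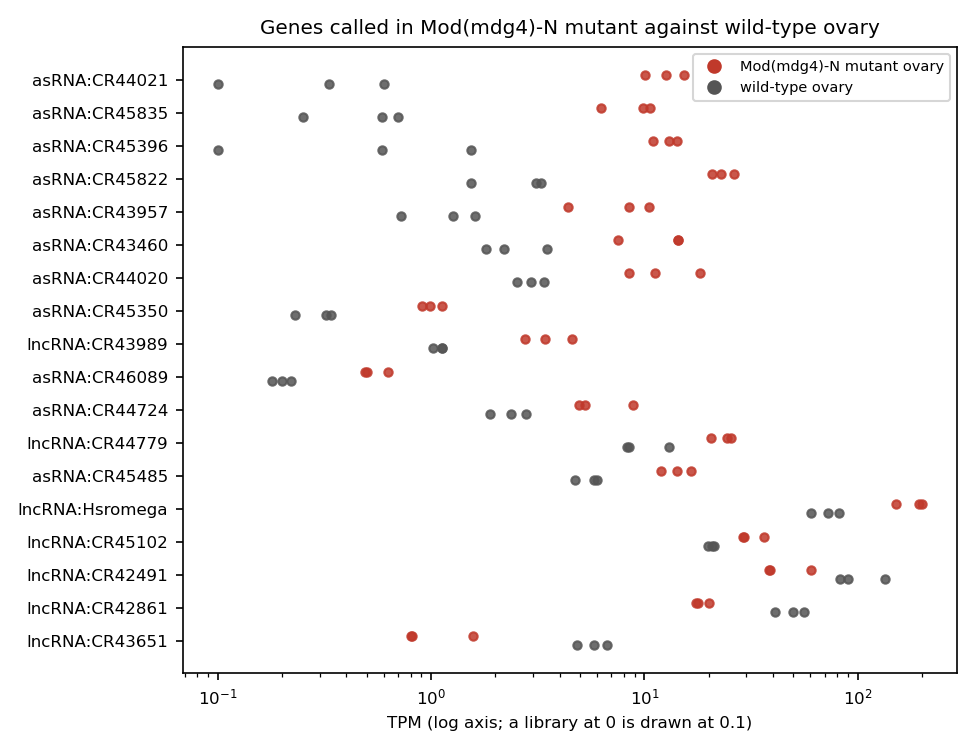
TPM (log axis) of the 18 noncoding genes called in Mod(mdg4)-N mutant ovary against wild-type ovary, 1 point per library, mutant (red) drawn above wild type (grey) in each row, a library at 0 drawn at 0.1. The groups do not overlap in any of the 18 rows, and asRNA:CR44021 and asRNA:CR45835, with the largest log2 fold changes, are at the top.

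asRNA:CR44021 (FBgn0264791, 3R:24519625-24520078, minus strand) had the largest log2 fold change of the genes called. It is a single-exon RNA of 454 bases, of which 396 (87.2%) are antisense to coding sequence of Pp1alpha-96A, a catalytic subunit of protein phosphatase 1. It was at 10.1, 15.3 and 12.6 TPM in mutant ovary, against 0, 0.33 and 0.60 TPM in wild-type ovary. The sums were 148 counts and 3 counts, a ratio of 44.8 (exact 95% interval for counting error 15.0 to 220) and the fitted log2 fold change was 5.34. It reached 1 TPM in mutant libraries only, so it entered the 493 genes through the group in which it is high, and its difference is a description with no test. In OSC it was at 0 to 0.38 TPM. Pp1alpha-96A itself was at 79.1 ± 5.82 TPM in mutant ovary and 88.5 ± 9.19 TPM in wild-type ovary (SD, n = 3 each) and was not called (log2 fold change -0.19, edgeR adjusted p = 0.171). The first 200 bases of CR44021 (3R:24519879-24520078, minus strand) show the antisense overlap, with bases opposite Pp1alpha-96A coding sequence in capitals.
asRNA:CR44021: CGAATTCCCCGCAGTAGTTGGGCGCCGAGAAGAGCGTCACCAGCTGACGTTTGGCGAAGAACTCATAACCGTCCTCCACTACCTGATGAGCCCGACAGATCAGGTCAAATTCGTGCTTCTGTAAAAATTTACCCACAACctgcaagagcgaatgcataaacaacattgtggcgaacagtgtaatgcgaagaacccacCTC

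asRNA:CR45835 and asRNA:CR45822, with log2 fold changes of 4.13 and 3.16, are neighbours on 3L. CR45835 (FBgn0267485, 3L:7361639-7363598, minus strand) lies over coding sequence of Sec63, a factor of protein translocation into the endoplasmic reticulum, with 91.2% of its 1960 bases, and CR45822 (FBgn0267472, 3L:7355717-7356598, plus strand) lies over CTCF, an insulator protein, with 79.4% of its 882 bases. The genes are 5040 bases apart on opposite strands, with pst between them. Their first 150 bases are printed because in both the whole stretch is antisense to coding sequence, shown by capitals throughout (CR45835, 3L:7363449-7363598, minus strand, and CR45822, 3L:7355717-7355866, plus strand).
asRNA:CR45835: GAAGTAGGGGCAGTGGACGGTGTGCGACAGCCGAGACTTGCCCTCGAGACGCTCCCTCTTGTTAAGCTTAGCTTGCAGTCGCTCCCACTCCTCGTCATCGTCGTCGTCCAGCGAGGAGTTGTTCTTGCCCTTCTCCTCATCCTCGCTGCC
asRNA:CR45822: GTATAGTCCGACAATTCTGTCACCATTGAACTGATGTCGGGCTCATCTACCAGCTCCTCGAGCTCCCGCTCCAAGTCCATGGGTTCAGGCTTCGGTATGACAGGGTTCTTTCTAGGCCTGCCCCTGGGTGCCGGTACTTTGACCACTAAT

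asRNA:CR45835 was at 9.84, 10.6 and 6.29 TPM in mutant ovary, against 0.25, 0.70 and 0.59 TPM in wild-type ovary (log2 fold change 4.13, SE 0.48, adjusted p = 0.00621, edgeR). asRNA:CR45822 was at 26.4, 22.9 and 20.9 TPM in mutant ovary, against 3.09, 1.54 and 3.26 TPM in wild-type ovary (log2 fold change 3.16, SE 0.40, adjusted p = 0.00831). Within ovary, CR45835 reached 1 TPM in mutant libraries only, the group in which it is high. In OSC CR45835 lay at 0.53 to 1.28 TPM and CR45822 at 2.77 to 4.19 TPM. Both genes were therefore near their wild-type ovary level in each OSC library and high in the 3 mutant ovaries. Of the coding genes beneath them, Sec63 was at 117 ± 8.65 TPM in mutant ovary and 94.1 ± 4.41 TPM in wild-type ovary (SD, n = 3 each; log2 fold change 0.28, adjusted p = 0.0338, edgeR). CTCF was at 23.8 ± 3.47 TPM in mutant ovary and 27.9 ± 1.23 TPM in wild-type ovary (log2 fold change -0.27, adjusted p = 0.0529, edgeR). These 2 antisense genes were the only noncoding genes still called when mutant replicate 2 or wild-type replicate 2 was left out, settings in which 2.28% and 1.96% of all genes were called. The other 4 omissions left 11 or 12 noncoding genes called.

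Further antisense genes rose. asRNA:CR45396 (3L:15142131-15142800), of which 74.8% lies over Pdi, a protein disulfide isomerase, was at 13.0, 11.0 and 14.3 TPM in mutant ovary, against 1.53, 0.59 and 0 TPM in wild-type ovary (log2 fold change 4.11, SE 0.92, adjusted p = 0.0293, edgeR). Within ovary, CR45396 met the rule of 1 TPM in 2 libraries through the mutant libraries, the group in which it is high. asRNA:CR43957 on chromosome 4 (4:56497-63124), of which 4.34% lies over ci, the transcription factor of Hedgehog signalling, was at 8.43, 10.5 and 4.38 TPM in mutant ovary, against 0.72, 1.27 and 1.60 TPM in wild-type ovary (log2 fold change 2.56, SE 0.47, adjusted p = 0.0178). The calls of CR45396 and CR43957 were lost in 4 and 3 of the 6 omissions of a library, with adjusted p-values of up to 0.115 (CR45396) and 0.0855 (CR43957). Mutant replicate 2 and wild-type replicate 2 were among those libraries for both genes, with mutant replicates 1 and 3 for CR45396 and wild-type replicate 1 for CR43957. The remaining antisense genes called had log2 fold changes of 1.35 to 2.15, and among them were CR43460 (over rdx), CR44020 (over osk, the germ plasm determinant), CR46089 (over Ctns and p53), CR44724 (over Arms) and CR45485 (over Had1).

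The coding genes opposite the called genes were mostly not called, as held for protein-coding genes in general. Of the 13 called genes with a tested opposite-strand coding gene, 9 had the sign of that gene. In 2 of the 13 the coding gene was called too, Sec63 among them, a share near the 18.2% called among all 7690 protein-coding genes tested. Across the 87 tested opposite-strand pairs, which share libraries and may share reads, the log2 fold changes had a Pearson correlation of 0.19. The coding genes were far more abundant: the median ratio of coding to noncoding TPM over the pairs was 15.3 in mutant ovary, 23.9 in wild-type ovary and 13.7 in EGFP KD.

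Of the lncRNA: genes that rose, Hsromega (FBgn0001234, 3R:21296127-21317836, plus strand) was the most abundant. It was at 200, 193 and 151 TPM in mutant ovary, against 81.8, 72.8 and 60.8 TPM in wild-type ovary, and the groups did not overlap (log2 fold change 1.28, SE 0.20, adjusted p = 0.0118, edgeR). Its adjusted p was 0.0596 without mutant replicate 2 and 0.0615 without wild-type replicate 2. In OSC it was at 25.5 to 29.2 TPM. Hsromega is a heat-inducible gene whose long nuclear transcript holds a tandem repeat with the motif ATAGGTAGG, found here 68 times on its strand between bases 3421 and 13678 of the gene and 0 times on the other. One stretch, from the second copy to the base before the fourth, is printed with the motif in capitals (3R:21299802-21300079, plus strand, 278 bases).
lncRNA:Hsromega: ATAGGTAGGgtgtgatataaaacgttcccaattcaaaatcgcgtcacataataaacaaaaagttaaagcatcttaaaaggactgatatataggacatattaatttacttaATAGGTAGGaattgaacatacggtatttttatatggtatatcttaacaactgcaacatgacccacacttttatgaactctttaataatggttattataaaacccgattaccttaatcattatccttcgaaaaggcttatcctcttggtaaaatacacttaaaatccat

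Of 481582 genome windows of this length, 506 (0.105%) held the motif on either strand. Of the 50-base words of the gene, 45.0% were not unique in the genome, and its effective length of 1236 to 1458 bases stood against 21710 exonic bases, as the effective length is a mean over isoforms weighted by their estimated expression. The other lncRNA: genes that rose were lncRNA:CR43989 (log2 fold change 1.67), lncRNA:CR44779 (1.37) and lncRNA:CR45102 (0.58).

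The 3 genes that fell were lncRNA: genes. lncRNA:CR43651 (FBgn0263660, 2R:9552844-9553940) was at 0.81, 0.80 and 1.57 TPM in mutant ovary, against 6.70, 4.83 and 5.83 TPM in wild-type ovary (log2 fold change -2.38, SE 0.40, adjusted p = 0.0143, edgeR). lncRNA:CR42861 (FBgn0262108, X:13744928-13745476, plus strand), which overlaps no exon of another gene, was at 17.9, 17.5 and 20.1 TPM in mutant ovary, against 49.6, 56.3 and 40.9 TPM in wild-type ovary (log2 fold change -1.44, SE 0.22, adjusted p = 0.0115). In OSC CR42861 was at 39.6 to 46.1 TPM, close to its wild-type ovary level. Both calls were lost without mutant replicate 2 or wild-type replicate 2, with adjusted p-values of up to 0.0753.

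lncRNA:CR42491 (FBgn0259993, X:762615-763810, minus strand) hosts snoRNA:Psi18S-531, a guide of rRNA pseudouridylation, inside the ribosomal protein gene RpL22, and 50.5% of its bases are same-strand exon of RpL22. It was at 60.8, 38.6 and 38.2 TPM in mutant ovary, against 83.0, 135 and 90.0 TPM in wild-type ovary (log2 fold change -1.17, SE 0.29, adjusted p = 0.0394, edgeR). RpL22 fell as well (log2 fold change -0.70, SE 0.15, adjusted p = 0.0275), and reads of the pair cannot be told apart over the shared exon. The call of CR42491 held in 1 of 6 omissions, the one of mutant replicate 1. The only other snoRNA host among the 493 genes, lncRNA:CR45184 with 5 snoRNAs, was at a mean of 7.02 TPM in mutant ovary and 10.7 TPM in wild-type ovary and was not called.

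Marker levels of other cell types differed between the ovary groups, and their part in the results was not tested. Late follicle cell and eggshell markers (9 genes, none at 0) summed to 33366 to 40265 TPM in mutant ovary, against 12039 to 23197 TPM in wild-type ovary, with 2 called higher (Vm26Aa and Yp3) and 0 lower. Single eggshell genes varied widely within wild type, as Cp15 was at 108, 5459 and 5908 TPM. Ovarian somatic markers (7 genes, 6 tested) summed to 141 to 156 TPM in mutant ovary, against 72.8 to 130 TPM in wild-type ovary, with 1 called higher (br). Fat body markers (4 genes, 2 tested) summed to 1067 to 1361 TPM in mutant ovary, against 727 to 831 TPM in wild-type ovary, nearly all of it Adh, the 1 called higher (log2 fold change 0.61, adjusted p = 0.0203, edgeR). The other fat body marker tested, apolpp, went the other way and was not called (log2 fold change -2.30, adjusted p = 0.158, edgeR). It was at 0.58, 5.02 and 3.13 TPM in mutant ovary, against 10.9, 28.5 and 1.68 TPM in wild-type ovary. Of the 5 testis markers bol alone was tested and called higher, and the sums were 8.84 to 10.8 TPM in mutant ovary, against 3.70 to 4.85 TPM in wild-type ovary. The 9 germline markers went both ways, with bam higher (log2 fold change 1.74) and rhi (-2.01) and vas (-0.50) lower. None of the 6 muscle sheath markers or the 2 tested hemocyte markers was called. Since whole ovaries were sequenced, more cells of a type and more RNA per cell cannot be told apart. Among 12 genes of the nuclear RNA exosome and its cofactors, the machinery that degrades unstable nuclear noncoding RNA, 7 rose and 0 fell (median log2 fold change 0.52), among them the nuclease Rrp6 at 39.7, 42.5 and 47.6 TPM in mutant ovary, against 31.9, 30.4 and 27.2 TPM in wild-type ovary (adjusted p = 0.0206, edgeR). Of 14 poly(A) and termination factors 0 were called.

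**Figure D3:**
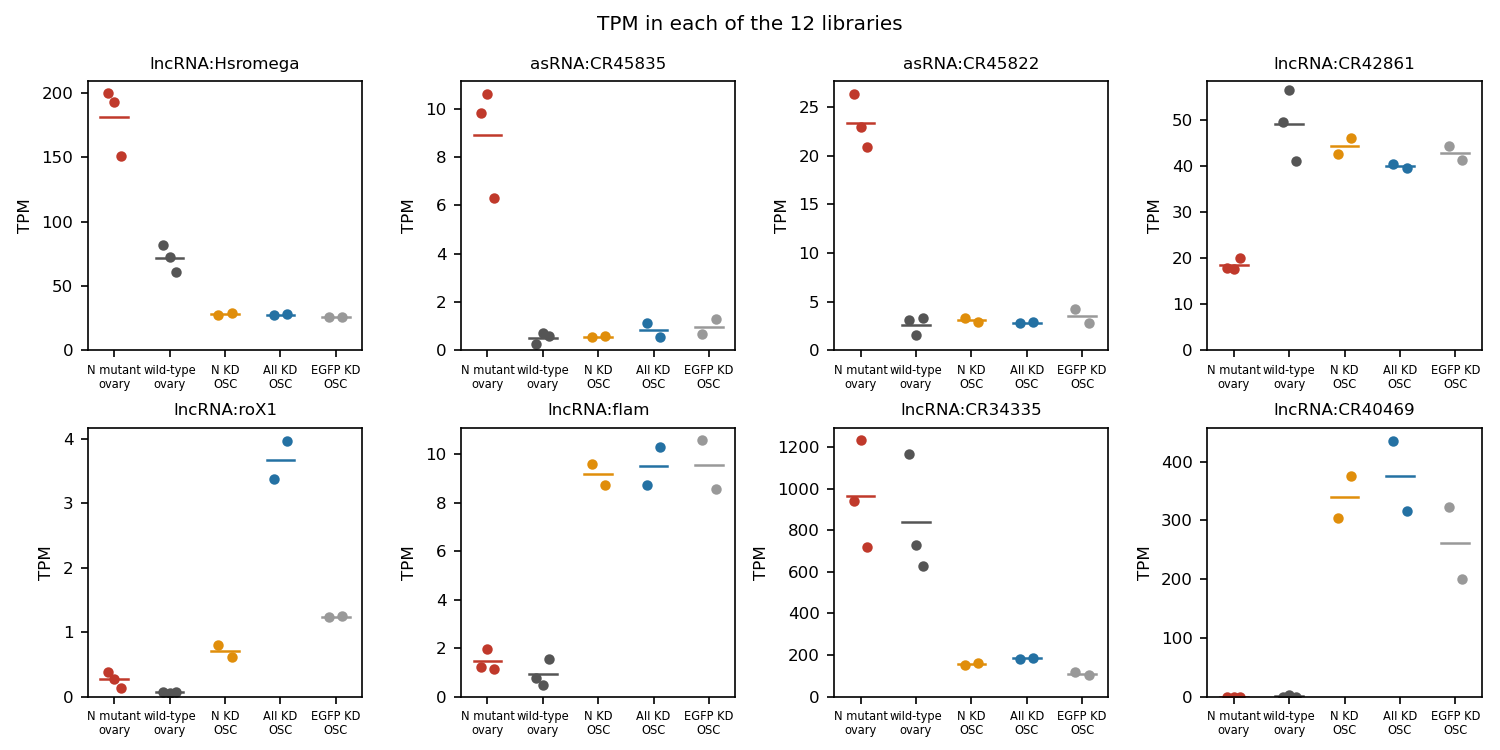
TPM of 8 noncoding genes in each of the 12 libraries (points), with a line at the mean of each group of 3 ovary or 2 OSC libraries. Hsromega, asRNA:CR45835 and asRNA:CR45822 are highest in the 3 mutant ovaries, lncRNA:CR42861 is lowest there, and roX1 is highest in the 2 Mod(mdg4)-All KD libraries.

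Between wild-type ovary and EGFP KD OSC, the direction of many of these genes was set by how they were chosen. Of 251 genes tested, 41 were higher and 129 lower in wild-type ovary, together 67.7%, against 68.8% of all 8685 genes tested, of which 35.5% were higher and 33.3% lower. Their median log2 fold change was -1.47, against 0.02 over all genes tested. At an unadjusted p under 0.05 there were 181 of the 251 genes, against 72.1% of all genes, and the groups did not overlap in 207, against 82%. This comparison is bound to the rule, because a gene that reached 1 TPM only in OSC had to be lower in ovary. Of the 493 genes, 213 passed the rule through OSC libraries only, 190 through both, 83 through ovary only and 7 through 1 library of each. Among the 190 that passed through both, 125 were tested, of which 16 were higher and 41 lower in wild-type ovary (median log2 fold change -0.81).

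**Figure D4:**
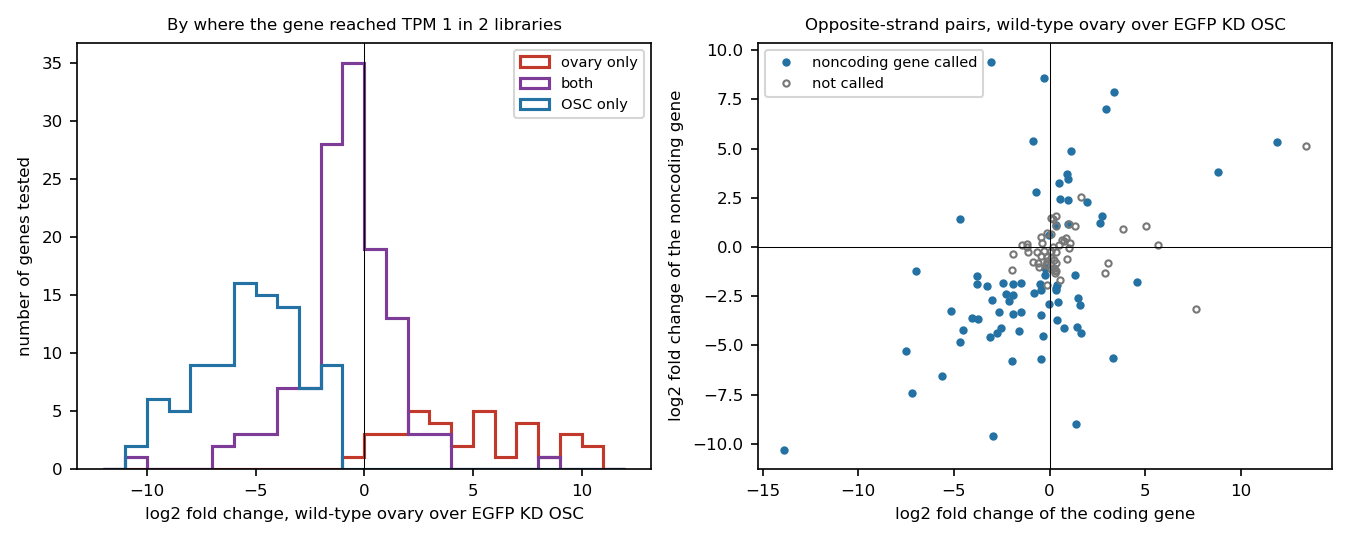
Left, number of noncoding genes tested by log2 fold change of wild-type ovary over EGFP KD OSC, outlined by the samples through which they reached 1 TPM in 2 libraries. Right, the same log2 fold change of each noncoding gene (vertical axis) against that of the coding gene it overlaps on the opposite strand (horizontal axis), filled where the noncoding gene was called. Genes that passed through OSC only lie below 0, those that passed through both centre just below 0, and pairs fall in all 4 quadrants.

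The 5 genes with the highest log2 fold changes in wild-type ovary over EGFP KD each reached 1 TPM in ovary libraries only, so their direction follows from the rule and their values are a description. They were led by lncRNA:CR44289 and lncRNA:CR44288, a divergent pair 329 bases apart on 3R (3R:27535831-27537903, minus strand, and 3R:27538233-27539159, plus strand) that overlaps no other exon. CR44289 was at 5.00, 13.0 and 6.37 TPM in wild-type ovary and CR44288 at 4.72, 9.49 and 8.58 TPM, against 0 TPM for both in each of the OSC libraries. With 3 counts per library as the limit that a count of 0 allows, CR44289 was at least 68.4-fold higher in wild-type ovary and CR44288 at least 24.5-fold higher. In mutant ovary the pair was at 4.39 to 6.12 TPM and 5.53 to 10.4 TPM, and neither was called against wild type. lncRNA:CR43250 was at least 55.1-fold higher in wild-type ovary than in EGFP KD, asRNA:CR45481 (over CG6414) at least 35.1-fold and asRNA:CR45189 (over zfh1, a zinc-finger transcription factor) at least 26.9-fold. zfh1 itself ran the other way (log2 fold change -3.07).

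On the OSC side, 5 genes with 0 counts in the 3 wild-type ovaries led, again as a description, since 4 of them reached 1 TPM in OSC libraries only and CR45197 in OSC and mutant ovary. By the same limit they were lower in wild-type ovary than in EGFP KD by at least 54.3-fold (lncRNA:CR45197), 54.0-fold (lncRNA:CR45593), 47.6-fold (asRNA:CR45272), 36.3-fold (lncRNA:CR45706) and 33.8-fold (lncRNA:CR45919). CR45593 (3R:6761513-6763478) was at 0 TPM in the 6 ovary libraries and at 13.5 to 17.2 TPM in the 6 OSC libraries. Over 7.26% of its bases it is antisense to Ama, an immunoglobulin-family cell adhesion protein that also had far lower counts in wild-type ovary (log2 fold change -13.9). CR45197 (X:2675188-2676657) lies within sgg, the Drosophila GSK3 kinase, on the same strand, and was at 3.36, 1.39 and 0.65 TPM in mutant ovary although at 0 TPM in wild type. Of its bases 100% are same-strand exon of sgg, so reads of CR45197 and sgg cannot be told apart. Among abundant genes that passed the rule through both ovary and OSC, lncRNA:CR45018 (within IP3K2) was at 2.16, 1.30 and 5.35 TPM in wild-type ovary, against 51.4 and 61.1 TPM in EGFP KD (log2 fold change -4.39, SE 0.50, adjusted p = 0.000771, edgeR). Of its bases 35.8% are same-strand exon of IP3K2. In the same set, asRNA:CR44599 (over loqs, a Dicer partner) was at 95.8, 77.4 and 55.0 TPM in wild-type ovary, against 4.38 and 10.7 TPM in EGFP KD (log2 fold change 3.26, SE 0.49, adjusted p = 0.00226, edgeR).

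Noncoding genes that passed the rule through both ovary and OSC were compared with the coding genes opposite them. Across 72 tested pairs, which share libraries and may share reads, the Pearson correlation of the log2 fold changes was 0.27, and of the 26 noncoding genes called, 19 had the sign of their coding gene. In 19 of the 26 pairs the coding gene was called too, with the same sign in 14. That share called is near the 68.9% called among all 8313 protein-coding genes tested. Of the genes that passed through both and overlap no exon of any other gene, 26 were tested, with 5 higher and 14 lower in wild-type ovary.

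Of the 12 genes with a name in place of a CR number, 6 were lower in wild-type ovary than in EGFP KD, 2 were higher (Hsromega and noe), 2 were not called and 2 had too few counts for the test. Of the 6 lower, flam was the 1 that passed the rule through both ovary and OSC. lncRNA:flam (FBgn0267704, X:21631891-21790731, plus strand), the piRNA precursor locus of the ovarian soma, was at 0.78, 0.48 and 1.56 TPM in wild-type ovary, against 10.6 and 8.55 TPM in EGFP KD (log2 fold change -3.07, SE 0.65, adjusted p = 0.00803, edgeR). Leaving out either EGFP KD library gave adjusted p-values of 0.067 (replicate 1) and 0.0566 (replicate 2). flam was at 9.60 and 8.74 TPM in Mod(mdg4)-N KD and 8.71 and 10.3 TPM in Mod(mdg4)-All KD, and at 1.23, 1.97 and 1.16 TPM in mutant ovary. Of its 50-base words 30.9% recur in the genome. The whole ovary also holds germline cells, and fewer somatic cells and less flam RNA per cell cannot be told apart.

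lncRNA:CRG, a gene within CASK that regulates CASK in locomotion, was at 0.20, 0.17 and 0.14 TPM in wild-type ovary, against 5.51 and 4.15 TPM in EGFP KD. lncRNA:enrr (within elav) was at 0.09, 0 and 0.10 TPM in wild-type ovary, against 3.84 and 4.99 TPM in EGFP KD. The coding gene elav itself was at 0.93, 0.66 and 0.29 TPM in wild-type ovary, against 16.9 and 16.8 TPM in EGFP KD. Of the exonic bases of CRG and enrr, 100% are same-strand exon of CASK and elav. Reads of each pair therefore cannot be told apart. asRNA:bsAS, an antisense RNA of the blistered locus, was at 0.07, 0 and 0.06 TPM in wild-type ovary, against 1.68 and 1.76 TPM in EGFP KD. CRG, enrr, bsAS, lncRNA:Irar and roX1 reached 1 TPM in OSC libraries only, so that their being lower in wild-type ovary follows from the rule. Their log2 fold changes of -4.96 (CRG), -6.35 (enrr), -5.16 (bsAS), -3.40 (Irar) and -4.24 (roX1) are a description.

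Hsromega was higher in wild-type ovary than in EGFP KD (log2 fold change 1.46, SE 0.16, adjusted p = 0.00074, edgeR). lncRNA:noe was higher in wild-type ovary too, at 5.09, 2.59 and 1.05 TPM, against 0.46 and 0.16 TPM in EGFP KD (log2 fold change 3.09, SE 0.96, adjusted p = 0.0323, edgeR). lncRNA:sphinx, a chimeric gene linked to male courtship, was at 1.53 to 2.05 TPM in wild-type ovary and 0.07 to 0.39 TPM in OSC, too few counts for the test. asRNA:ASTR and lncRNA:dntRL were measured and not called (adjusted p = 0.677 and 0.516), and lncRNA:marge ranged between 0 and 5.62 TPM over the 12 libraries.

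In Mod(mdg4)-N KD, 0 of 235 tested genes were called against EGFP KD, where 0.0247% of all 8106 genes were called. DESeq2 also called 0, and 18 of the 235 genes had an unadjusted p under 0.05, against 2.81% of all genes. The median log2 fold change was 0.06. The smallest unadjusted p-values belonged to a pair of antisense genes on chromosome 4, both inside unc-13, a synaptic vesicle priming factor. asRNA:CR43425 (FBgn0263344, 4:867824-871426, plus strand) was at 2.26 and 1.59 TPM in Mod(mdg4)-N KD, against 0.50 and 0 TPM in EGFP KD (log2 fold change 2.98, SE 0.75, unadjusted p = 0.00461, adjusted p = 0.9998, edgeR). asRNA:CR44029 (4:879374-884752), 7947 bases away, was at 23.3 and 24.3 TPM, against 19.7 and 18.9 TPM in EGFP KD (log2 fold change 0.33, SE 0.08, unadjusted p = 0.00504, adjusted p = 0.9998). EGFP KD replicate 1 held all 25 EGFP KD counts of CR43425. CR43425 was at 2.22 and 2.33 TPM in Mod(mdg4)-All KD, which shares the EGFP KD controls, and at 0 to 0.16 TPM in ovary. It reached 1 TPM in knockdown libraries only, and so entered the 493 genes through them. Its difference is therefore a description with no test.

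In Mod(mdg4)-All KD, 1 of 239 tested genes was called against EGFP KD, lncRNA:roX1, where 1.1% of all 8126 genes were called. At an unadjusted p under 0.05 there were 33 of the 239 genes, against 12.9% of all genes. roX1 (FBgn0019661, X:3857230-3862697, minus strand) is an RNA of the dosage compensation complex, which raises transcription of the male X and is not assembled in females. It was at 3.38 and 3.97 TPM in Mod(mdg4)-All KD, against 1.23 and 1.25 TPM in EGFP KD (log2 fold change 1.72, SE 0.17, adjusted p = 0.012, edgeR). In Mod(mdg4)-N KD it was at 0.80 and 0.61 TPM, below both EGFP KD libraries (log2 fold change -0.75, SE 0.25, unadjusted p = 0.0182, adjusted p = 0.9998). In ovary it was at 0.39, 0.28 and 0.14 TPM in mutant and 0.08, 0.06 and 0.08 TPM in wild type, or 3 or 4 counts per wild-type library. The call in Mod(mdg4)-All KD was lost without EGFP KD replicate 1 (adjusted p = 0.0677) or replicate 2 (0.0761), with log2 fold changes of 1.70 and 1.75.

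A stretch of roX1 is printed because it carries the roX boxes, the motif by which roX RNAs bind the complex, in capitals (GTTNTACG, X:3858907-3859048, minus strand, 142 bases, from base 3650 of the gene).
lncRNA:roX1: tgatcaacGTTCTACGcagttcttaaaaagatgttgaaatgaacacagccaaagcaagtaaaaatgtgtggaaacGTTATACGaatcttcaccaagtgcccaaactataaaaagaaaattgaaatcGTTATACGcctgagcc

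The motif occurred 3 times on the strand of roX1 and 2 times on the other strand of the gene, and 0.877% of 942818 genome windows of this length held it on either strand. Of the 7 dosage compensation genes, 6 were tested and roX1 was the 1 called in Mod(mdg4)-All KD. msl-2, the subunit that limits the complex in females, was at 8.03 and 8.75 TPM in Mod(mdg4)-All KD, against 8.15 and 8.97 TPM in EGFP KD (log2 fold change 0.06, SE 0.10). lncRNA:roX2 stayed below 0.65 TPM in each library and is not among the 493 genes.

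asRNA:CR45818 (FBgn0267468, 3L:1796854-1797272, minus strand), of which 88.5% lies over Cdc37, a co-chaperone of Hsp90, was next. It was at 6.24 and 11.6 TPM in Mod(mdg4)-All KD, against 0 and 0 TPM in EGFP KD, or at least 9.42-fold higher with 3 counts per library as the limit (adjusted p = 0.0531, edgeR). In Mod(mdg4)-N KD it was at 8.08 and 0 TPM, so that 1 of the 2 libraries of that group lacked it as well, and in ovary it was at 6.65 to 20.9 TPM in mutant and 13.1 to 19.0 TPM in wild type. It was called by DESeq2 (adjusted p = 0.00165) and without Mod(mdg4)-All KD replicate 1 (0.00601) or replicate 2 (0.026).

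The effect of Mod(mdg4)-N loss in ovary and of its knockdown in OSC differed by the test of that difference in 4 of 294 genes, 2 in each direction, against 3.31% of all 9011 genes tested (2.51% higher and 0.799% lower). At an unadjusted p under 0.05 there were 41 of the 294 genes, against 21.5% of all genes. The 4 genes were asRNA:CR45835, asRNA:CR45822, lncRNA:CR42861 and lncRNA:CR46123. For the first 3, the log2 fold changes were 4.13, 3.16 and -1.44 in mutant against wild-type ovary, and -0.77, -0.12 and 0.08 in Mod(mdg4)-N KD against EGFP KD. lncRNA:CR46123 (FBgn0267798, 3R:1366234-1366601, minus strand, within Myo81F) was at 0 TPM in the 3 mutant ovaries, against 7.42, 2.66 and 2.43 TPM in wild-type ovary, and at 39.3 and 38.8 TPM in Mod(mdg4)-N KD, against 41.0 and 27.8 TPM in EGFP KD. Its ovary counts were too low for the ovary test, and 18.5% of its 50-base words recur, some at 18 places. These differences set a mutant tissue beside a transient knockdown in cultured cells, and each call was lost on leaving out some of the libraries, Mod(mdg4)-N KD replicates 1 and 2 among them.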

How the data were processed

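Poly(A)+ RNA was sequenced from 6 whole-ovary and 6 OSC libraries with a strand-keeping kit. Per the labels and the methods, the authors aligned paired reads with STAR and RSEM to dm6, and versions are not given in the sources used here. The deposited files hold, per gene, RSEM expected counts (estimated, not always whole) and TPM, which the authors scaled by effective length, with the lengths beside them. No other step was taken on the deposited values. Expected counts were rounded and tested with the edgeR 4.0.16 quasi-likelihood test (R 4.3.3, limma 3.58.1), TMM scaling, genes above 1 CPM in 3 libraries (ovary) or 2 (comparisons with OSC), and Benjamini-Hochberg adjustment over all genes tested, threshold 0.05. DESeq2 1.42.0, RLE scaling, no filter, a replicate block, a common OSC fit, other TPM limits and each replicate left out were alternatives. The tests recovered changes built into simulated counts, in genes with more counts than the median gene described here and with the same spread set for each gene. Recovery at lower counts, or at the spread of the real libraries, was not examined.

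Groups came from the labels, which give y1 w1118 for both ovary groups. Same-numbered mutant and wild-type ovary libraries deviated together (correlations 0.214, 0.335 and 0.273 over genes, against -0.312 to 0.0505 for differently numbered ones). The numbers may therefore pair them, which the labels do not state. Separate cultures or dissections are not stated, so p-values measure the spread between these libraries, which may be technical. Floors of 3 counts and 95% intervals cover counting error only. The 50-base words and sequences came from the RefSeq Release 6 genome sequence. Symbols, positions and overlaps came from the Ensembl annotation of that genome. In this annotation 654 of 655 transcripts of the genes matched, and 97 of 17807 gene identifiers had no symbol and were not used for naming. Genes named were those with a name, the 5 called with the largest changes in each direction, the 8 highest and those with a called difference between systems, with the smallest unadjusted p-values where fewer than 2 were called. The genes, lists and tests were chosen with earlier results of these data known.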

Additional observations from a re-analysis of the deposited data

Results flagged for a closer look

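The effect of Mod(mdg4)-N loss in ovary minus that of its knockdown in OSC, tested as an interaction by edgeR, stood out for 4 noncoding genes of 294 tested (3.31% of all genes were called). The log2 difference was 4.88 for asRNA:CR45835 (SE 0.72, adjusted p = 0.013), 3.26 for asRNA:CR45822 (SE 0.58, adjusted p = 0.0238), -1.53 for lncRNA:CR42861 (SE 0.27, adjusted p = 0.0236) and -6.54 for lncRNA:CR46123 (SE 1.19, adjusted p = 0.0383). In each, the 3 mutant ovaries lay on 1 side of the 3 wild-type ovaries, and the log2 fold change in OSC was between -0.77 and 0.23. Leaving out either Mod(mdg4)-N KD library ended the call of each of the 4 genes (adjusted p 0.0895 to 0.155), as did leaving out EGFP KD replicate 2 (0.0696 to 0.149). Without EGFP KD replicate 1, asRNA:CR45835 was the 1 of the 4 still called. Such an omission leaves a group with 1 library, which is then assumed to vary like the others.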

How the results depend on the processing

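The number of genes was 493 under the rule used, 336 at 2 TPM in 2 libraries and 442 at 1 TPM in 3 libraries. In mutant against wild-type ovary, 18 genes were called, 29 by DESeq2, 2 of the 30 that overlap no other exon, and between 2 and 12 with a library left out. In wild-type ovary against EGFP KD, 170 were called, 65 of the 76 that overlap no other exon, and between 99 and 175 with a library left out, the fewest without EGFP KD replicate 1 (99) or 2 (105). In Mod(mdg4)-N KD, 0 were called, 3 with no filter on low counts and 1 with the replicate block. That 1 was asRNA:CR43425, which entered the 493 genes through knockdown libraries, so its call is a description. In Mod(mdg4)-All KD, 1 was called, 3 by DESeq2, 5 with no filter, 4 with the replicate block (asRNA:CR45818 at adjusted p = 0.0408 among them), 2 with the 3 OSC groups in 1 fit, and between 0 and 12 with a library left out (0 without EGFP KD replicate 2, 12 without Mod(mdg4)-All KD replicate 2, 5 without its replicate 1). For the difference between ovary and OSC, 4 were called, 16 by DESeq2, 7 with the replicate block, and between 0 and 9 with a library left out. Without mutant replicate 3 or wild-type replicate 1 that count was 9, without mutant replicate 2 or EGFP KD replicate 1 it was 1, and without EGFP KD replicate 2 or either Mod(mdg4)-N KD library it was 0. These counts are given without the share called over all genes under the same setting. They therefore do not show whether a shift is particular to noncoding genes. The cause of these shifts was not tested. In OSC the same-numbered libraries had correlations of 0.146 to 0.191. With 2 libraries a group the deviations are mirror images, so these values cannot settle whether the OSC libraries are paired. Between tissues the correlations were -0.0208 and 0.0221, and the block called 173 genes. Across the named genes, RLE scaling kept 30 of 30 calls or non-calls, DESeq2 29, the block 28 and the omissions 127 of 175, with no change of sign. With 2 or 3 libraries a group and a median of 6.63 counts a gene in ovary, most of the 493 genes could not be tested there.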
